A study of Mus with 2 samples.

Results

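The cells described here are putative proximal tubule precursors of the newborn mouse kidney, picked by the transcripts Osr2 and Cdh6. Of 11369 kept cell barcodes, 192 met the rule, 95 of 6220 in replicate 1 and 97 of 5149 in replicate 2. A barcode was kept with at least 2000 unique molecular identifiers (UMIs, each 1 counted transcript) and at most 10% mitochondrial UMIs. A member had at least 1 Osr2 UMI, at least 2 Cdh6 UMIs and no UMI of Slc34a1, Nphs1, Irx1 or Pecam1, which mark differentiated proximal tubule, podocytes, distal nephron precursors and endothelium. At most 1 Col3a1 UMI, a stromal collagen transcript, was allowed. The measured values of these 7 genes therefore chose the members, and they are described without a test.

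Both libraries were single-cell RNA libraries of whole kidney at P0, with the genotype Rbpj c/- ; Foxd1cre/+, and both belonged to the mutant group. Foxd1 is a gene of the stromal progenitors of the kidney, and Rbpj encodes the DNA-binding partner of activated Notch receptors. Every member and every barcode compared with them came from a mutant kidney. Control kidneys were not analysed here, and no mutant value below is set against one. The labels did not say whether the libraries came from separate litters. The levels of Xist and Eif2s3y given with the other checks differed as between animals of different sex, so the libraries did not come from 1 animal. With library as a block in each fit, the p-values measure how far class differences varied between these libraries. That variation may in part be technical.

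A nephron starts as a vesicle of cells that leave the progenitor pool, and the vesicle then lengthens into an S-shaped body with proximal, middle and distal ends. Lhx1 and Wnt4 act early in that sequence, Notch ligands and receptors act as the proximal side is set up, and the transcription factor Hnf4a is required for the proximal tubule to mature. Cdh6 is a cadherin of the forming proximal tubule, and Osr2 is a zinc-finger transcription factor of the developing nephron.

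Members made up 1.53% of kept barcodes in replicate 1 (exact binomial 95% interval 1.24 to 1.86%) and 1.88% in replicate 2 (1.53 to 2.29%). The intervals overlap, and like all intervals below they cover counting error only. The share rose with depth up to 50000 UMIs. None of 751 and 587 barcodes between 2000 and 5000 UMIs was a member, which allows a share of up to 0.490 and 0.626% (upper bound of the exact binomial interval). Between 20000 and 50000 UMIs the share was 4.68% (46 of 982) and 5.02% (41 of 816), and above 50000 UMIs it was 1.78 and 2.11%. Median depth was 21537 and 19616 UMIs in members and 11870 and 12180 in all other kept barcodes. Applied after each barcode was thinned to 5000 UMIs, the rule kept 0.530 and 0.416% of barcodes. The count of members therefore depends on the depth of a barcode, and their share is not an estimate of the share of such cells in a kidney.

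**Figure D1:**
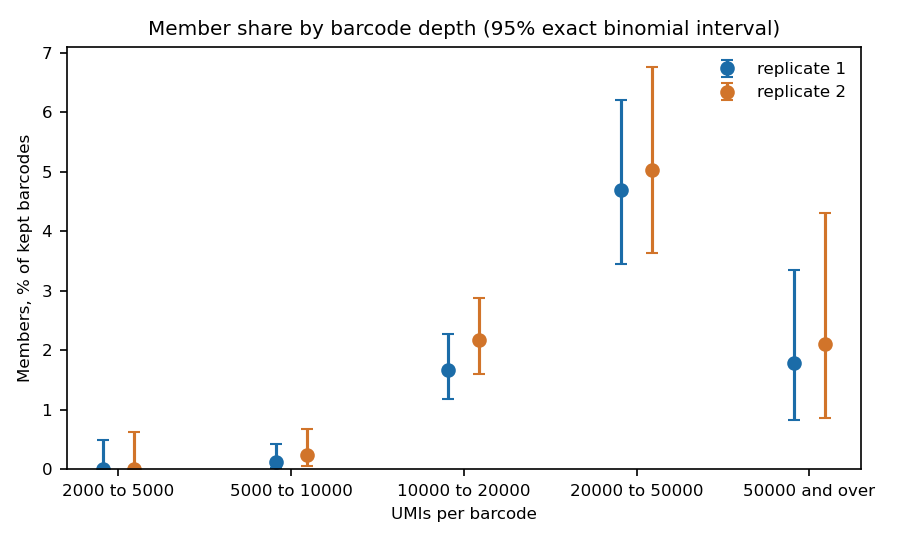
Share of kept barcodes that met the rule (vertical axis, percent, with exact binomial 95% intervals) by total UMIs of the barcode (horizontal axis, 5 ranges) in replicates 1 and 2. Both libraries show no member under 5000 UMIs and the highest share, 4.68 and 5.02%, between 20000 and 50000 UMIs.

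Members carried a median of 10 Osr2 UMIs in replicate 1 (range 1 to 54) and 8 in replicate 2 (1 to 68). For Cdh6 the median was 3 in both, with ranges of 2 to 9 and 2 to 6. Relative to all UMIs of the class, Osr2 stood at 431 and 439 CPM (a gene's UMIs scaled to the total UMIs of the class, with replicates 1 and 2 in that order throughout) in members and at 74.3 and 56.6 in all other kept barcodes. Cdh6 stood at 111 and 121 CPM against 15.8 and 13.2. Osr2 lies on chromosome 15 from 35296098 to 35303305 and Cdh6 on the same chromosome from 13028699 to 13176407 (mouse build GRCm38).

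The step that removed most candidates after Osr2 was the Cdh6 minimum, which left 420 of 1169 and 299 of 837 barcodes. Members just inside it, with 2 Cdh6 UMIs, numbered 42 and 39 and had 1146 and 1311 CPM of Lhx1 and 46.1 and 44.2 CPM of Cpb2. Barcodes just outside it, with 1 Cdh6 UMI and the rest of the rule met, numbered 67 and 55 and had 754 and 952 CPM of Lhx1 and 26.3 and 29.1 CPM of Cpb2. Another 24 and 20 barcodes failed by a single Slc34a1 UMI, 31 and 21 by a single Nphs1 UMI and 10 and 5 by a single Irx1 UMI. Those with 1 Slc34a1 UMI had 74.7 and 55.6 CPM of Cpb2 and 58.1 and 60.8 of Hnf4a, above the 39.3 and 32.8 CPM of Hnf4a in members with 2 Cdh6 UMIs. Lhx1 and Cpb2 were lower just outside the Cdh6 minimum than just inside it in both libraries, while Hnf4a (24.1 and 38.1 CPM outside) and Gc (5.48 and 4.01 outside against 5.12 and 7.57 inside) were each higher outside in 1 library.

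The 3 further genes given as markers with the rule were chosen along with the members. Their levels describe the members and do not test the name. Cpb2, a plasma carboxypeptidase, had a UMI in 50.5 and 46.4% of members and in 7.71 and 7.13% of all other kept barcodes. In barcodes rich in globin, which should lack it, the share was 0.599 and 0% at median depths of 4392 and 4514 UMIs. After thinning to 5000 UMIs it was 16.8 and 17.5% in members, 3.35 and 2.89% in all other kept barcodes and 0% in globin-rich barcodes of both libraries. Gc, the vitamin D binding protein, stood at 10.4 and 11.2 CPM in members against 1.94 and 1.66, with a UMI in 18.9 and 13.4% of members. Xpnpep2, a brush border peptidase, stood at 7.83 and 8.41 CPM against 4.40 and 4.63, and at 31.4 and 33.9 CPM in barcodes with at least 2 Slc34a1 UMIs. Cpb2 and Gc were higher in members than in all other kept barcodes in both libraries, and Xpnpep2 was far below its level in differentiated proximal tubule.

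Markers of other cell types were lower than elsewhere but not absent. Summed over their lists, stromal markers reached 33.6 and 25.6 CPM in members against 943 and 1043 in all other kept barcodes, and endothelial markers 35.4 and 23.6 against 575 and 445. Podocyte markers summed to 260 and 263 CPM against 1275 and 1363 in all other kept barcodes. Mural markers summed to 103 and 140 CPM against 439 and 386, distal tubule markers to 131 and 129 against 368 and 314, and nephron progenitor markers to 229 and 212 against 480 and 534. Ureteric markers were the closest, at 101 and 91 CPM against 174 and 169. Globin and other erythroid markers summed to 257 and 85.8 CPM against 18490 and 16260. Immune markers summed to 7.08 CPM in replicate 1 and 134 in replicate 2, where 1 barcode held all 105 C1qb and all 84 C1qa UMIs. Scrublet, which scores likely doublets, marked 4 and 1 members, the C1qb barcode among them. The libraries shared 6 kept barcode sequences, and none of them was a member. Between the libraries, 32 of the 6309 genes with at least 20 CPM in members differed by over 2-fold. Xist (1032 and 0.801 CPM) and the Y-linked Eif2s3y (0 and 65.7 CPM) were among them, so library was a block in every fit.

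Members were first set against all other kept barcodes of the same library. The rule itself was cut along this contrast, so its counts describe what was picked and nothing further is read from them. UMIs were summed per library and class, and the quasi-likelihood F test of edgeR, with p-values adjusted by Benjamini and Hochberg's method, placed 2765 genes higher and 3494 lower in members at an adjusted p under 0.05. These were 16.9 and 21.3% of 16397 genes tested, 38.2% in all. The median log2 fold change of all genes tested was -0.10.

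Early nephron genes were among the higher genes of this contrast. Lhx1, a homeobox factor of the early nephron (chromosome 11, 84517975 to 84525534), stood at 1156 and 1182 CPM in members and at 187 and 193 in all other kept barcodes, a log2 difference of 2.68 ± 0.04 (SE). It had a UMI in 91.6 and 93.8% of members, and after thinning in 83.2 and 82.5% of members, 17.5 and 17.7% of the others and 1.38 and 3.45% of globin-rich barcodes. Wnt4, the signal that drives the mesenchyme to epithelium, stood at 920 and 886 CPM against 179 and 148, or 2.53 ± 0.05 on the log2 scale. Both summed levels were higher in members in each library, while single members ranged down to 0 UMIs of either gene. Of 12 genes listed for renal vesicle and early nephron, 10 were higher and none lower, with a median log2 difference of 1.66. Ccnd1 (cyclin D1) stood at 1105 and 1200 CPM against 396 and 379, Pax8 at 255 and 278 against 97.5 and 93.7, and the neuropeptide gene Npy at 76.4 and 66.5 against 14.1 and 14.2. Dkk1 and Cxcr4 did not pass the threshold.

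Cbln4, a secreted member of the cerebellin family, had the largest rise among the 15 genes named by rule, 4.07 ± 0.19 on the log2 scale, at 50.3 and 44.1 CPM in members and 3.19 and 2.65 elsewhere. Crabp1, a retinoic acid binding protein, stood at 39.5 and 26.4 CPM against 4.58 and 3.51, and Dapl1 at 19.0 and 28 against 1.94 and 3.29. Steap1, Svopl and Fam167a were also among the 15. Lhx1os, at 222 and 249 CPM against 44.3 and 48.0, lies beside Lhx1, and without a stated strand setting its reads and those of Lhx1 may not be fully separated. Genes at 0 UMIs in all members included Kdr, the endothelial VEGF receptor (at least 101-fold lower), the matrix gene Postn (at least 51.1-fold lower), the endothelial factor Sox17 (at least 48.5-fold lower) and the neutrophil gene Retnlg (at least 41.3-fold lower). These bounds set 3 counts over both libraries in place of the 0. Nephron progenitor genes were lower in 8 of 9 tested (median -2.63). Six2 stood at 12.7 and 5.21 CPM against 69.1 and 76.4, and its log2 difference was -2.45 within replicate 1 and -3.87 within replicate 2. Sall1, at 154 and 159 CPM against 83.3 and 85.1, was the member of that list that was higher.

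**Figure D2:**
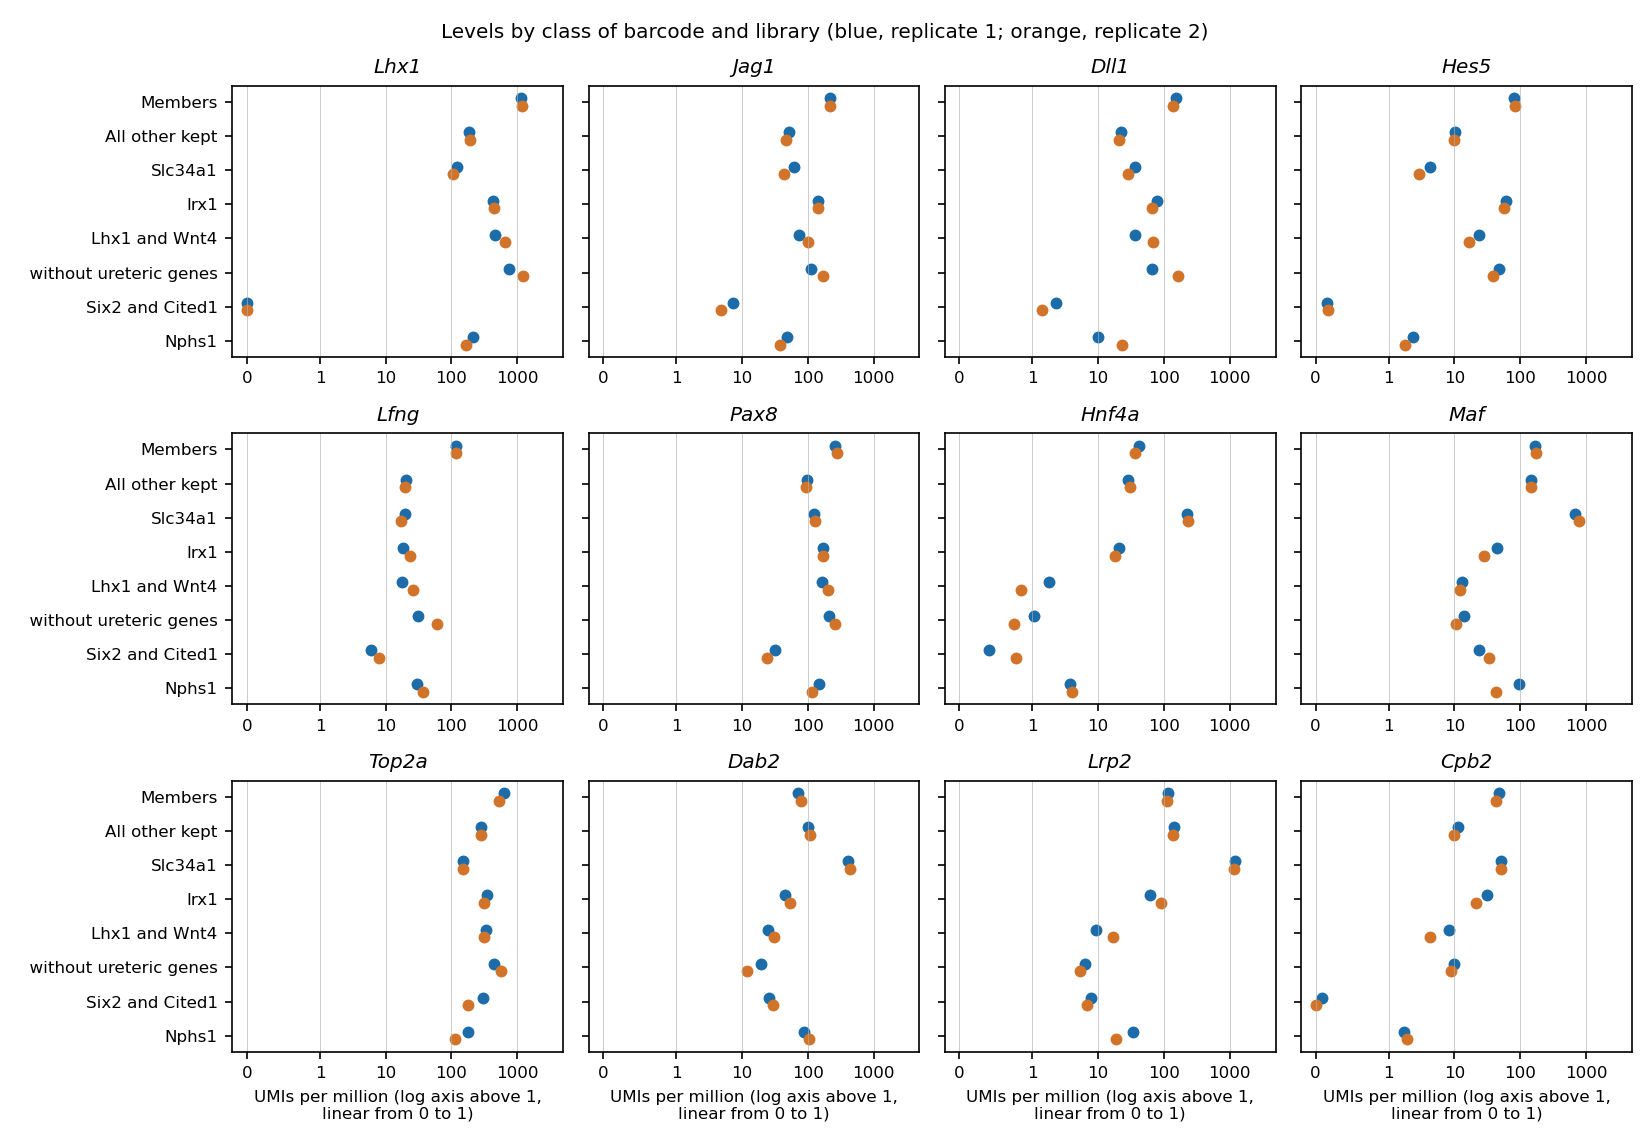
CPM (horizontal axes, linear from 0 to 1 and logarithmic above) of 12 genes in members, all other kept barcodes and the gated classes named on the vertical axis, with a blue point for replicate 1 and an orange point for replicate 2. Lhx1 reaches 1156 and 1182 CPM in members and Lrp2 113 and 111, while Lrp2 stands at 1218 and 1155 in barcodes with at least 2 Slc34a1 UMIs. The class without ureteric genes is a part of the Lhx1 and Wnt4 barcodes, and Lhx1 is at 0 by rule in barcodes gated on Six2 and Cited1.

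Notch pathway genes differed within each role. The ligands Jag1 and Dll1, which activate receptors on the next cell, stood at 219 and 218 CPM and at 151 and 136 CPM in members, against 52.7 and 46.6 and against 22 and 20.8 elsewhere. Jag2 and Dll4, other ligands of the list, had no UMI in members. Among receptors, Notch1 stood at 165 and 148 CPM against 68.1 in both libraries, Notch2 at 44.0 and 41.3 against 24.3 and 26.2, and Notch3 at 6.71 and 8.01 against 12.6 and 11.4. Notch1 and Notch2 were thus higher in members in each library and Notch3 lower.

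Lfng, an enzyme that adds sugar to Notch receptors and tunes their response to ligands, stood at 116 and 116 CPM against 20.3 and 19.9. The target Hes5 stood at 79.4 and 83.3 CPM against 10.2 and 9.71 and was detected in 43.2 and 42.3% of members. After thinning its share was 17.9 and 22.7% in members, 1.86 and 2.22% in the others and 0% in globin-rich barcodes of both libraries. Hey1 (85.0 and 90.2 against 25.4 and 25.6), Heyl (60.4 and 49.7 against 15.3 and 13.3) and the feedback inhibitor Nrarp (113 and 103 against 21.8 and 20.3) were higher as well. Hes1 was not among the genes that rose, at 145 and 116 CPM in members and 159 and 147 elsewhere. Of the 18 genes of the list, 9 were higher and 5 lower, with a median of 0.52. Rbpj itself stood at 52.2 and 52.5 CPM in members and 46.4 and 47.1 elsewhere. Counts from transcript 3' ends do not show whether the targeted exons are present.

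Transcription factors of the proximal tubule were present at unequal levels. Hnf4a (chromosome 2, 163506811 to 163572907) stood at 41.4 and 35.7 CPM against 28.3 and 30.3, and Maf at 168 and 175 against 146 and 145. Hnf4a had a UMI in 54.7 and 46.4% of members. Thinned, the share was 24.2 and 15.5% in members, 5.55 and 5.17% in the others and 0 and 1.38% in globin-rich barcodes. The difference was small in CPM and larger in the share of barcodes. The other kept barcodes include those with at least 2 Slc34a1 UMIs, where Hnf4a stood at 222 and 233 CPM. In all, 5 of 11 tested factors of the list were higher and 3 lower. The size of these differences depended on which barcodes were kept. Hnf4a, at 0.46, ranged from 0.16 with a 20% mitochondrial limit to 1.69 with a 5% limit, and its call was lost with the 20% limit, with at least 4 Cdh6 UMIs (0.20) and by DESeq2 (0.46). Hnf4g, at 0.88, ranged from 0.27 with at least 4 Cdh6 UMIs to 2.21 with the 5% limit, and its call was lost with the former and by DESeq2 (0.89). Maf, at 0.30, ranged from 0.07 with the 20% limit to 0.79 without barcodes over 50000 UMIs, and its call was lost with the 20% limit and with 1 Cdh6 UMI sufficing (0.13).

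All 18 cell cycle genes listed were higher in members, with a median log2 difference of 0.90, and DESeq2 called 15. Top2a, which untangles replicated DNA, stood at 633 and 535 CPM against 277 and 277, and Mki67 at 418 and 339 against 212 and 217. Members were deeper barcodes than the rest. With every barcode thinned to 5000 UMIs, the log2 difference of Top2a was 0.89, against 1.13 without thinning.

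Genes of the working proximal tubule were more often lower than higher. None of 23 carriers tested was higher and 14 were lower. Of 10 endocytic genes 1 was higher (Clcn5) and 7 lower, and of 12 plasma protein genes 1 was higher (Ambp) and 6 lower. Of 15 brush border genes 2 were higher (Dpp4 and Myo7b) and 11 lower, and of 15 metabolic genes 2 were higher (Acsm2 and Hnf4a) and 11 lower. Lrp2 (megalin, the main endocytic receptor of the segment) stood at 113 and 111 CPM against 143 and 137, a log2 difference of -0.26 ± 0.07. Its sign changed with the barcodes kept, and it was 1.27 with at most 5% mitochondrial UMIs, 0.51 without barcodes over 50000 UMIs and 0.93 after thinning.

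The second comparison set members against differentiated proximal tubule, taken as 215 and 154 barcodes with at least 2 Slc34a1 UMIs, no Nphs1 or Pecam1 UMI and at most 1 Col3a1 UMI. It asks how far the members' proximal genes lay from their level in the grown segment. One fit held 6 gated classes, and it also gave the comparisons with the Irx1 barcodes and with the Lhx1 and Wnt4 barcodes. Barcodes that met 2 of the other gates were left out of the gated classes. The 13 genes used in the gates and the 3 markers were removed from the calls. Of 13732 genes tested, 2927 were higher in members (21.3%) and 3639 lower (26.5%), 47.8% in all, with a median over all genes of -0.04. Scaled by library size alone, the counts were 3660 higher and 3017 lower, with a median of 0.09, so the balance between directions depends on the scaling.

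Most listed genes of proximal function were lower in members. Members had no Slc34a1 UMI by rule and the compared class at least 2, so this direction may follow in part from how the groups were cut. All 15 brush border genes and all 15 metabolic genes tested were lower, with median log2 differences of -4.13 and -4.39. Of 22 carriers 21 were lower (median -4.54), and of 10 endocytic genes 8 were lower (median -2.35). Of 11 plasma protein genes 7 were lower (median -2.99), and DESeq2 called 4 of them. With genes at 0 UMIs in a class set to their bound, the medians were -3.62 for brush border genes and -4.27 for carriers.

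Lrp2 stood at 113 and 111 CPM in members and 1218 and 1155 in the Slc34a1 barcodes, a log2 difference of -3.54 ± 0.25 (edgeR adjusted p = 1.3e-06). Dab2, the adaptor that drives megalin uptake, stood at 72.3 and 78.9 CPM against 408 and 440, and Cubn, the partner receptor of megalin, at 4.85 and 2.0 against 137 and 101. The 3 genes did not fall short alike, since Dab2 differed by -2.62 ± 0.09 and Cubn by -5.24 ± 0.28. Fbp1, a gluconeogenic phosphatase, stood at 5.96 and 2.4 CPM against 373 and 254 (-6.34 ± 0.24). Keg1, at 25.3 and 30.1 CPM against 468 and 593, and the peptidase Mep1a, at 19.4 and 12.4 against 434 and 389, differed by -4.39 ± 0.22 and -4.82 ± 0.23. In both libraries the members' level lay below that of the Slc34a1 barcodes for each of these 6 genes. With at most 5% mitochondrial UMIs, Lrp2 differed by -2.36. Median mitochondrial share was 4.81 and 4.98% in members and 6.70 and 7.10% in the Slc34a1 barcodes, and its part in these differences was not tested.

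The 10 lowest genes named by rule had few or no UMIs in members. Slc17a1, a phosphate and urate carrier, had 1 UMI in all members and 1319 in the Slc34a1 barcodes, a ratio of 0.00211 (counting interval 5.35e-05 to 0.0118). Miox, which degrades inositol, had 1 UMI against 544 (ratio 0.00513, 0.000129 to 0.0287). The peroxisomal gene Ehhadh had 1 against 611 (ratio 0.00456, 0.000115 to 0.0255). Cyp2d26 stood at 0.373 and 1.20 CPM against 96.7 and 125, and the amino acid carrier subunit Slc3a1 at 1.49 and 0 against 85.2 and 72.6. Ttr, Slc22a19, Slc5a12, Slc22a30 and Erich4 completed the 10 lowest genes named by rule.

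The proximal regulators did not share a direction against the Slc34a1 barcodes. Hnf4a (41.4 and 35.7 against 222 and 233 CPM), Hnf4g (9.32 and 10.0 against 44.3 and 36.3) and Maf (168 and 175 against 669 and 785) were lower, by log2 differences of -2.69 ± 0.13, -2.19 ± 0.25 and -2.23 ± 0.29. Nr1h4, Ppara and Tfec were lower too. Pax8 and Pax2, factors of the early nephron, were higher, Pax2 at 208 and 279 CPM against 74.6 and 75 (1.58). With at most 5% mitochondrial UMIs Pax2 was 0.99 and no longer passed (adjusted p = 0.068 by edgeR). The difference for Maf fell to -0.70 with at most 5% mitochondrial UMIs.

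Notch and early nephron genes went the other way. Of 15 Notch genes tested 12 were higher and 1 (Rfng) lower, with a median of 1.34, and all 10 early nephron genes tested were higher, with a median of 3.29. Jag1 stood at 219 and 218 CPM against 61.9 and 43.6 (1.91 ± 0.18, edgeR adjusted p = 1.0e-05). Hes5 stood at 79.4 and 83.3 CPM against 4.20 and 2.90 (4.36 ± 0.19), Hey1 at 85.0 and 90.2 against 7.47 and 5.62 (3.58 ± 0.19) and Lfng at 116 and 116 against 19.5 and 17.0 (2.51 ± 0.16). Ccnd1 stood at 1105 and 1200 CPM against 89.5 and 101 (3.46 ± 0.15). Dll1, at 151 and 136 CPM against 36.5 and 28.5, differed by 1.99 ± 0.32, but by 0.28 (adjusted p = 0.55 by edgeR) with at most 5% mitochondrial UMIs. Of 18 cell cycle genes 17 were higher and none lower (median 1.57), with Top2a at 633 and 535 CPM against 151 and 149. With at most 5% mitochondrial UMIs Top2a kept its sign at 0.77 and no longer passed (adjusted p = 0.074, same test). Some markers of other cell types were higher too. Mural genes were higher in 3 of 4 tested (median 3.03), immune genes in 4 of 7 and podocyte genes in 3 of 10, with 1 podocyte gene lower. Mural markers summed to 103 and 140 CPM against 19.7 and 7.33. Without 9 members rich in S100a6 or C1qb, Acta2 and Tagln were still called and no immune gene was higher. The part of these markers was not tested.

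Of 15 junction genes tested 2 were higher and 10 lower. Among the 10 highest genes named by rule, Lama4, a laminin chain, stood at 122 and 147 CPM against 4.20 and 3.75 (4.91 ± 0.16, edgeR adjusted p = 1.9e-08). Sdk2, an adhesion molecule, stood at 22 CPM in both libraries against 0.934 and 0.511. The tight junction gene Cldn5 stood at 110 and 92.6 CPM against 3.38 and 5.11. Among cadherins, Cdh2 (58.2 and 70.1 against 9.34 and 8.01) and Cdh4 (45.1 and 45.3 against 8.05 and 10.7) were higher. Cdh16 (69.3 and 50.5 against 244 and 247) and Cdh1 (29.1 and 23.2 against 58.5 and 64.4) were lower. The log2 differences were 2.74 ± 0.30, 2.16 ± 0.29, -2.17 ± 0.27 and -1.36 ± 0.19 in that order, and after thinning Cdh4 no longer passed (1.22, adjusted p = 0.091 by edgeR). The members' cadherins thus included more Cdh2 and Cdh4 and less Cdh1 and Cdh16 transcript in both libraries.

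Bmp2 and Rmst were also among the 10 highest. In replicate 2, 1 barcode of 165361 UMIs held 75 of the 211 Bmp2 UMIs and 81 of the 119 Rmst UMIs of its library. Bmp2 differed by 3.66 within replicate 1 and 7.07 within replicate 2, and by 2.84 without barcodes over 50000 UMIs. Rmst, a long noncoding RNA, differed by 3.14 and 7.37 within the libraries and by 2.23 without those barcodes, and with at most 5% mitochondrial UMIs it no longer passed (2.88, adjusted p = 0.12 by edgeR). Cyp1b1 stood at 38.8 and 18 CPM against 1.05 and 1.19, and Tm6sf1 at 32.4 and 24.0 against 1.40 and 1.19.

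**Figure D3:**
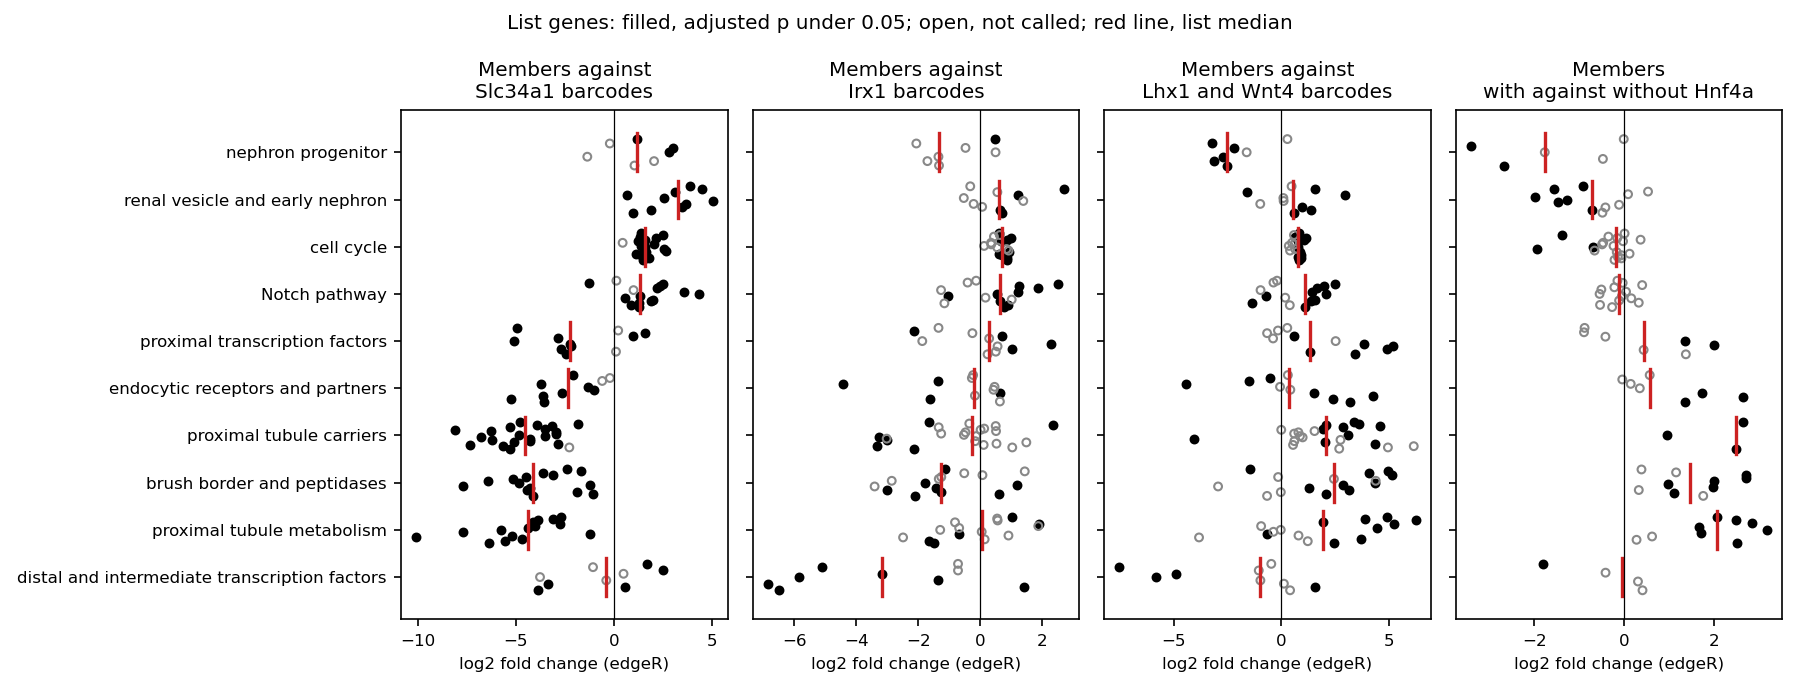
Log2 fold change (horizontal axes) of each tested gene of the lists on the vertical axis in 4 comparisons, members against Slc34a1 barcodes, Irx1 barcodes, and Lhx1 and Wnt4 barcodes, and members with against without an Hnf4a UMI. Filled points had an adjusted p under 0.05, open points did not, and a red line marks the list's median. The medians of carriers, brush border and metabolic genes lie left of 0 against the Slc34a1 barcodes (-4.54, -4.13 and -4.39) and right of 0 against the Lhx1 and Wnt4 barcodes (2.07, 2.45 and 1.94).

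The third comparison set members against distal nephron precursors of the same kidneys, 235 and 191 barcodes with an Irx1 UMI, none of Slc12a1, Slc34a1, Nphs1 or Pecam1 and at most 1 Col3a1 UMI. These cells arise beside the proximal precursors in the S-shaped body, and the comparison asks how the neighbours differ. Of 13732 genes, 883 were higher in members (6.43%) and 958 lower (6.98%), 13.4% in all, with a median of -0.03.

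Distal transcription factors were lower in 6 of 9 tested, with a median of -3.19. Members had no Irx1 UMI by rule and the compared class at least 1, so this direction may follow in part from how the groups were cut. Irx2 stood at 1.12 and 1.6 CPM in members and 117 and 133 in the Irx1 barcodes, and Sim2 at 0.746 and 1.20 against 115 and 116. Their log2 differences were -6.49 ± 0.39 and -6.86 ± 0.48 (edgeR adjusted p = 1.6e-05 and 4.2e-05). Tfap2b stood at 1.86 and 1.6 CPM against 108 and 98.8, with a wide error (-5.85 ± 1.64, adjusted p = 0.04 by the same test). Its call was lost where 1 Cdh6 UMI sufficed for a member (-1.99, adjusted p = 0.28) and with at least 4 (-7.61, adjusted p = 0.12). Irx3 went against its list, at 94.3 and 68.5 CPM in members and 35.1 and 27.9 in the Irx1 barcodes (1.40 ± 0.21). Pou3f3, at 79.8 and 56.1 CPM against 170 and 187, was lower in members but still well detected. Irx2 was thus nearly undetected in members, while Irx3 was more abundant there in both libraries.

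Among proximal factors Maf (168 and 175 against 43.7 and 28.5 CPM) and Hnf4a (41.4 and 35.7 against 20.6 and 18) were higher, by 2.28 ± 0.31 and 1.03 ± 0.16, and Foxc1 (32.1 in both against 146 and 142) was lower, by -2.13 ± 0.24. The Hnf4a difference no longer passed after thinning (0.70, adjusted p = 0.24 by edgeR). Proximal function genes showed no common direction. Carriers were higher in 1 and lower in 5 of 22, brush border genes higher in 2 and lower in 6 of 15, and metabolic genes higher in 2 and lower in 3 of 15. Acsm2, a mitochondrial acyl-CoA ligase (34.7 and 32.9 against 10.0 and 9.0), and the peptidase gene Enpep (71.9 and 87.4 against 32.5 and 39.0) were higher. Lrp2, at 113 and 111 CPM against 60.4 and 89.3, did not pass.

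Notch genes were more often higher than lower, with 8 of 15 higher in members and 1 lower (median 0.63). Lfng stood at 116 and 116 CPM against 18.5 and 23.6 (2.51 ± 0.16, edgeR adjusted p = 1.8e-05). Heyl stood at 60.4 and 49.7 CPM against 14.7 and 16.3 (1.87 ± 0.23), Nrarp at 113 and 103 against 49.2 and 44.6 (1.24 ± 0.12) and Hey1 at 85.0 and 90.2 against 40.1 and 36.2 (1.23 ± 0.16). After thinning Hey1 was 0.79 and no longer passed (adjusted p = 0.090 by edgeR). Hes1 was lower in members, at 145 and 116 CPM against 293 and 258 (-1.04 ± 0.13). Hes1 and the other 3 target genes, all controlled by Notch in many tissues, therefore differed in opposite directions. Smaller differences lay near the threshold. Jag1, at 219 and 218 CPM against 144 and 145, passed (0.63 ± 0.17, adjusted p = 0.035 by edgeR) but lost its call under 6 alternatives, and Hes5, at 79.4 and 83.3 against 60.5 and 56.1, also lost it under 6. Dll1, at 151 and 136 CPM against 79.0 and 66.2, just missed it (1.01 ± 0.30, adjusted p = 0.051 by the same test) and passed under 4 alternatives, with adjusted p from 0.0049 to 0.049.

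The 10 rises named by rule were led by Crabp1 (39.5 and 26.4 against 2.59 and 1.29 CPM), Dapl1 (19.0 and 28 against 1.62 and 4.50) and Cbln4 (50.3 and 44.1 against 7.12 and 6.0). Npy (76.4 and 66.5 against 15.1 and 7.93), Cav1, the coat protein of caveolae (53.7 and 66.9 against 11.7 and 12.2), and Pdzd2 (205 and 200 against 41.3 and 39.0) were also among the 10, with Cyp1b1, Rnase12, Lfng and Maf. With at most 5% mitochondrial UMIs Dapl1 and Rnase12 no longer passed (adjusted p = 0.062 and 0.28 by edgeR). With Irx2, Sim2 and Tfap2b, 7 further genes made up the 10 falls named by rule. Calb1, a calcium-binding protein, stood at 0.373 and 1.6 CPM against 191 and 43.9 and differed by -8.62 within replicate 1 and -4.66 within replicate 2, and its call was lost with at most 5% mitochondrial UMIs (-7.04, adjusted p = 0.063 by edgeR). The claudin Cldn3, a member of the junction list, stood at 8.20 and 8.01 CPM against 133 and 157. BC100530 stood at 0.746 and 0 CPM against 91.1 and 0.214, so its fall rested on replicate 1. Ttr, a plasma protein, Vav3, Spink8, Cldn4 and Scnn1b, a subunit of the epithelial sodium channel, were the others. Of 18 cell cycle genes 10 were higher and none lower (median 0.68). Top2a, at 633 and 535 CPM against 351 and 312, differed by 0.85 ± 0.15, and its call was lost with at most 5% mitochondrial UMIs (0.84, adjusted p = 0.11 by edgeR).

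The fourth comparison set members against 116 and 117 barcodes with Lhx1 and Wnt4 UMIs and none of Osr2, Irx1, Slc34a1, Nphs1, Pecam1 or Ret, again with at most 1 of Col3a1. The gate was meant for renal vesicle stage cells, which precede the S-shaped body. It also held collecting duct RNA, with Aqp2 at 254 and 277 CPM and Fxyd4 at 365 and 496, so it is called here by its rule. A narrower class left out barcodes with an Aqp2, Wnt7b, Wnt9b or Gata3 UMI, a choice made after the data were seen, and kept 81 and 70. Of 13732 genes, 1684 were higher in members and 1651 lower, 24.3% in all, with a median of 0.0014. Scaled by library size alone, 1263 were higher and 1951 lower. Against the narrower class 694 of 13607 genes were higher (5.1%) and 424 lower (3.12%), 8.22% in all.

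Proximal lists held more higher than lower genes against this class. Members had Osr2 by rule and the compared class had none, so this direction may follow in part from how the groups were cut. Of 11 proximal factors 6 were higher and none lower (median 1.35). Hnf4a stood at 41.4 and 35.7 CPM against 1.76 and 0.843 (4.92 ± 0.27, edgeR adjusted p = 3.2e-06) and Maf at 168 and 175 against 13.1 and 12.1 (3.84 ± 0.37). Brush border genes were higher in 8 and lower in 1 of 15 (median 2.45), carriers higher in 9 and lower in 1 of 22 (2.07), and metabolic genes higher in 8 and lower in 1 of 15 (1.94). With genes at 0 UMIs at their bound, the brush border and carrier medians were 2.10 and 1.85. Lrp2 stood at 113 and 111 CPM against 9.31 and 16.9 (3.19 ± 0.31), and 4.27 against the narrower class. Against the narrower class, proximal factors were higher in 5 and lower in 1 of 11, brush border genes higher in 9 and lower in 1 of 15, and metabolic genes higher in 7 of 15. Carriers kept 3 calls there, Slc2a2, Slc4a4 and Slc39a5.

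The 10 rises named by rule included Hnf4a, Acsm2 (34.7 and 32.9 against 1.26 and 0.562 CPM), Hdc, the histamine-forming enzyme (20.5 and 36.1 against 1.26 and 1.41), and Keg1 (25.3 and 30.1 against 0.755 and 1.97). Amn, which carries cubilin to the surface, stood at 27.6 and 16.0 CPM against 1.51 and 0.843, and Qprt, an enzyme of NAD synthesis, at 38.8 and 30.5 against 2.26 and 1.69. Sult1d1, a sulfotransferase, stood at 68.6 and 24.4 CPM against 1.76 and 2.25, and 1 barcode of replicate 1 held 100 of its 184 UMIs. RP23-306P12.3 and Ildr2 were also named by rule, as was C1qb, whose 109 UMIs in members lay in 1 barcode for all but 4. Of 7 ureteric genes 5 were lower and none higher. The 10 falls named by rule included genes at 0 UMIs in members, for which only a bound is known. These were the sodium channel subunit Scnn1g (at least 87.5-fold lower), Elf5 (at least 45.4-fold lower), Tmem45b (at least 42.4-fold lower), Muc20 (at least 35.3-fold lower) and Il17re (at least 34.1-fold lower). Crisp1, Scnn1b and Spink8, with 1 or 2 UMIs in members, had ratios of 0.00245, 0.00255 and 0.00257. Aqp2 and Fxyd4 completed the 10, and the order among the 10 is not settled.

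Notch genes were higher in 8 and lower in 2 of 15 against the Lhx1 and Wnt4 barcodes (median 1.11). Lfng stood at 116 and 116 CPM against 17.6 and 25.9 (2.51 ± 0.17), Nrarp at 113 and 103 against 29.9 and 26.7 (2.0 ± 0.13) and Notch1 at 165 and 148 against 77.2 and 76.2, all with an edgeR adjusted p under the threshold. Against the narrower class 4 remained higher (Notch1, Hes5, Nrarp and Lfng) and 2 were lower (Hes1 and Hey2), with a median of 0.35. The ligands did not remain among the calls. Jag1 stood at 113 and 173 CPM and Dll1 at 65.5 and 166 in the narrower class, and their differences were 0.63 and 0.39 (adjusted p = 0.075 and 0.60 by edgeR). Cell cycle genes were higher in 12 of 18 against the whole class and in 0 of 18 against the narrower class by edgeR, with 0 at an unadjusted p under 0.05. DESeq2 was not run for the narrower class. Cdh1 and Cdh16 were lower in members against the whole class and higher against the narrower one. Lfng, Nrarp, Notch1 and Hes5 were thus higher in members under both gates, while the calls of Jag1 and Dll1 were lost with the narrower class. After thinning, Hes5 against the whole class was 0.83 and no longer passed (adjusted p = 0.10 by edgeR). Dll1, at 1.57 against the whole class, was also not called with the 5% mitochondrial limit (0.35), without barcodes over 50000 UMIs (0.43) or after thinning (0.19), and Jag1, at 1.39, was not called with the 5% limit (0.46).

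The members were not uniform. To follow their variation along a gene the rule did not use, they were divided by Hnf4a, of which 52 and 45 had a UMI and 43 and 52 had none. Median depth was 21482 and 20153 UMIs with Hnf4a and 21910 and 18982 without. Absence of an Hnf4a UMI at this depth does not show absence of the transcript. Of 9422 genes tested, 229 were higher with Hnf4a (2.43%) and 216 lower (2.29%), 4.72% in all, with a median of 0.0021. DESeq2 called 49, and without the filter on low counts 3 passed, so single calls of this comparison depend on the tool and the filter.

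Several proximal function genes were higher in the members with Hnf4a. Of 16 listed metabolic genes 9 were tested and 7 were higher, of 16 brush border genes 10 and 6, of 10 endocytic genes 7 and 3, and of 24 carriers 3 and 3, with none lower. A gene met the filter on low counts if it reached the minimum in both libraries of either group, and 5 of the metabolic, 4 of the brush border, 1 of the endocytic and 2 of the carrier genes tested did so only with Hnf4a. Such genes had to differ, so the counts are a description. Of the genes that reached the minimum in all 4 sums, 2 of 3 metabolic, 4 of 6 brush border, 2 of 6 endocytic and the 1 carrier were called. DESeq2 called 2, 2, 2 and 0 genes of the lists. Of 4 erythroid genes tested, 2 (Hba-a1 and Hbb-bs) were also higher with Hnf4a, and erythroid markers summed to 332 and 94.7 CPM with it and 158 and 79.8 without. Mural markers summed to 36 and 17.9 CPM with Hnf4a and 192 and 222 without, and both mural genes tested (Acta2 and Tagln) were lower with it by edgeR and by DESeq2. Acta2 was also called without 9 members rich in S100a6 or C1qb. The part of these markers in the differences was not tested. Dab2 stood at 103 and 135 CPM with Hnf4a and 32.1 and 41.5 without (1.74 ± 0.19, edgeR adjusted p = 1.6e-06) and Lrp2 at 142 and 188 against 75.4 and 59.0 (1.35 ± 0.19). Pdzk1, the scaffold of brush border carriers, stood at 74.6 and 120 CPM against 11.3 and 19.4 (2.71 ± 0.24), and Keg1 at 39.9 and 65.8 against 6.06 and 6.03 (3.18 ± 0.33). Spink1, a trypsin inhibitor, stood at 94.2 and 99.7 CPM against 13 and 16.1, and the peptidase Dpp4 at 272 and 328 against 132 and 155. Slc2a2, the basolateral glucose carrier, stood at 24.9 and 29.9 CPM against 6.06 and 4.02. Both values with Hnf4a exceeded both values without it for each of these genes, but Keg1 and Slc2a2 were under the minimum without Hnf4a and their order was fixed by the filter. The factor Maf (213 and 294 against 108 and 94.5) was higher too. Hnf4g stood at 14.4 and 16.9 CPM against 2.60 and 5.36, under the minimum in both libraries without Hnf4a, so its order is a description.

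The filter also bears on most genes named by rule among the rises. Keg1, Susd3, Hao2, Slc39a5 and Amn were under the minimum in both libraries without Hnf4a, and RP23-306P12.3, Sult1d1 and Gipc2 in 1 of them, so their values are a description. Amn stood at 43.8 and 30.9 CPM against 6.06 in replicate 1 and 6.03 in replicate 2. Sult1d1 stood at 113 and 52.8 CPM against 10.4 and 5.36, with 1 barcode of replicate 1 holding 100 of 184 UMIs, and its log2 difference within replicate 2 was 3.21. Hao2, a peroxisomal oxidase, differed by 3.56 within replicate 1 and 2.0 within replicate 2, and Gipc2 by 4.19 and 1.91. Even with Hnf4a, members stayed below the Slc34a1 barcodes, as in Lrp2 at 142 and 188 CPM against 1218 and 1155, and in Dab2 at 103 and 135 against 408 and 440.

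Early nephron genes were lower in the members with Hnf4a, 6 of 11 with none higher (median -0.70), and DESeq2 called 3 of them. Ccnd1 stood at 746 and 431 CPM with Hnf4a and 1579 and 1718 without (-1.47 ± 0.15, edgeR adjusted p = 3.6e-07). Wnt4 stood at 779 and 551 CPM against 1107 and 1110 (-0.70 ± 0.13), and Npy at 47.8 and 21.9 against 114 and 96.5 (-1.55 ± 0.21). Ccnd1, Wnt4 and Npy were lower with Hnf4a in both libraries. Lhx1 stood at 1120 and 751 CPM against 1205 and 1471 and just missed the threshold (-0.48 ± 0.14, adjusted p = 0.057 by the same test). Its difference was -0.11 within replicate 1 and -0.97 within replicate 2, and it passed under 8 alternatives, among them no barcodes over 50000 UMIs (-0.74, adjusted p = 6.5e-07), at least 2 Osr2 UMIs (-0.51) and thinning (-0.56). Of the other calls, Bmp2 stood at 21.6 and 14.9 against 42.5 and 131 CPM, Sfrp2 at 185 and 62.8 against 212 and 250, and Fgf8 at 32.1 and 13 against 30.3 and 102. All 3 rested mainly on replicate 2, where Bmp2 differed by -3.10 against -0.96 within replicate 1, and Fgf8 was 0.08 within replicate 1. None of the 3 was called by DESeq2, without the filter or with at least 4 Cdh6 UMIs. Of 6 podocyte-list genes tested 3 were lower, among them Wt1 and Cldn5, Cldn5 at 35.3 and 46.8 CPM against 208 and 123. Of 18 cell cycle genes 3 were lower (Ccne2, Pcna and Rrm2), and DESeq2 called none. In each of the cell cycle, podocyte and mural lists 1 tested gene reached the minimum in both libraries only without Hnf4a, and of the genes that reached it in all sums 2, 2 and 1 were called. Rrm2 stood at 35.3 and 50.8 CPM against 121 and 107, while Top2a, at 665 and 448 against 592 and 592, did not pass.

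No Notch gene passed in this comparison, 0 of 13 by edgeR's quasi-likelihood test and 0 by DESeq2, with 4 at an unadjusted p under 0.05. Jag1 stood at 228 and 176 CPM with Hnf4a and 207 and 246 without, and Hes5 at 66.1 and 103 against 97.0 and 70.4. Their order differed between the libraries. A p that misses the threshold does not show that the levels were alike.

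**Figure D4:**
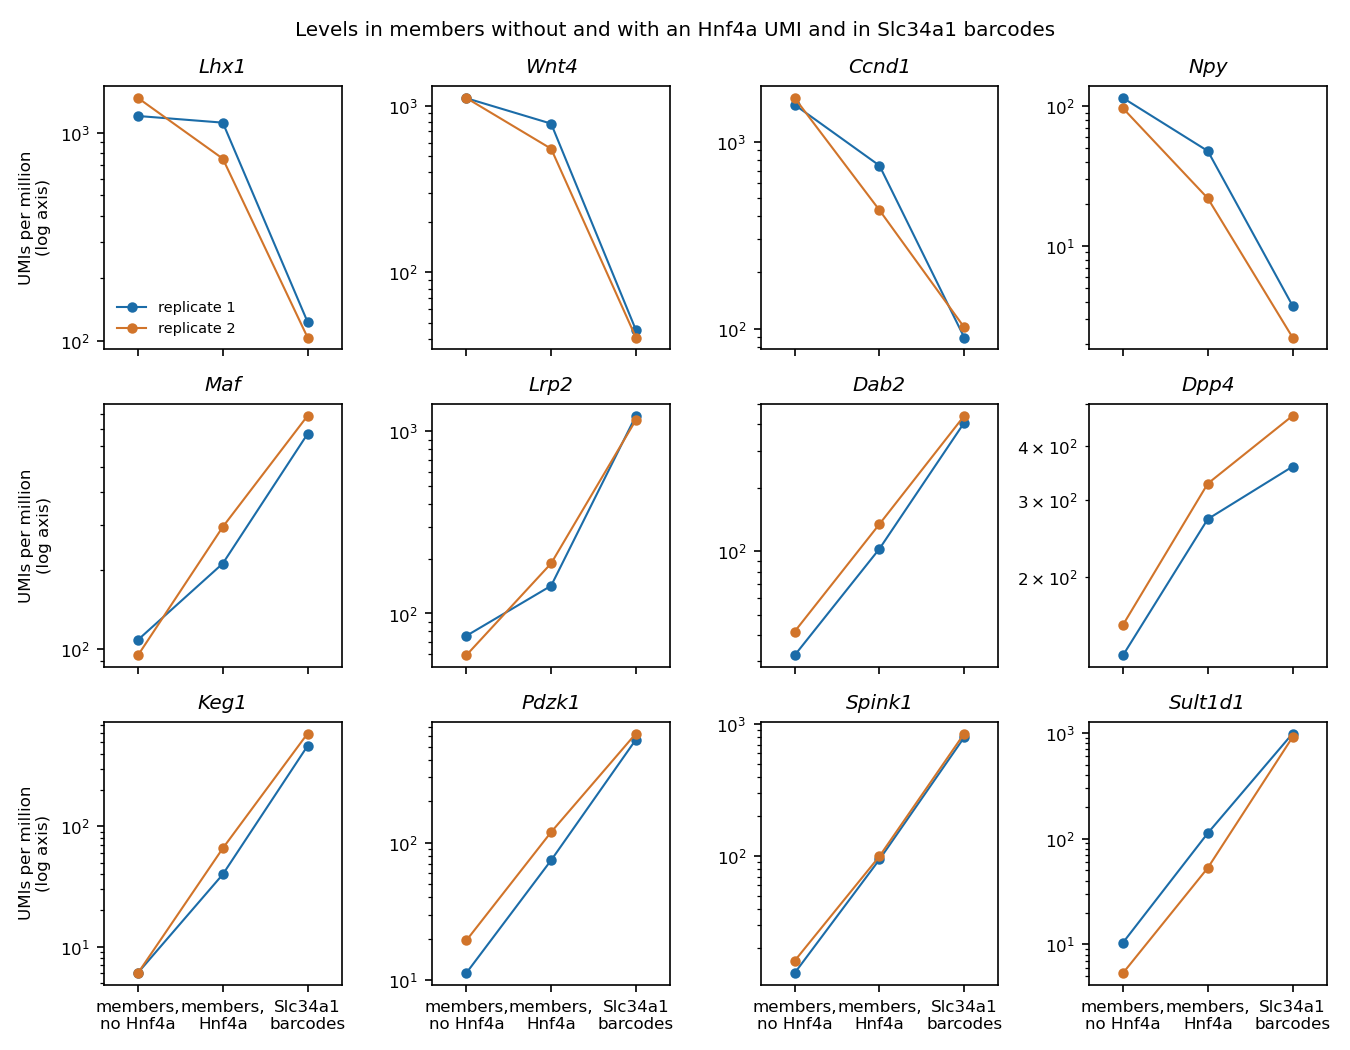
CPM (vertical axes, logarithmic) of 12 genes in members without an Hnf4a UMI, members with one, and barcodes with at least 2 Slc34a1 UMIs, with a point for each library and a line joining its points. Ccnd1, Wnt4 and Npy fall from the first to the second group, while Dab2 (32.1 and 41.5, then 103 and 135, then 408 and 440) rises over the 3 groups.

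A group of 8 members, 5 in replicate 1 and 3 in replicate 2, each had over 10 S100a6 UMIs (17 to 85) and was singled out after these values were seen. They had 0 or 1 Lhx1 UMI and no Hnf4a UMI, yet 335 and 192 CPM of Lrp2, at depths of 6100 to 27852 UMIs. Summed, they had 3138 and 2601 CPM of S100a6, 3040 and 3857 of Vim and 711 and 785 of Krt8, while the other members had 6.51 and 4.10, 28.3 and 32.4 and 54.8 and 27.5. S100a6 encodes a calcium-binding protein, Vim an intermediate filament and Krt8 a keratin of simple epithelia. None of the 8 had a Cpb2 or Gc UMI. With the C1qb barcode they made up the 9 members left out in the alternative fit. Without them the Hnf4a comparison had 523 calls (3.18% of the genes tested higher and 2.54% lower, 5.72% in all), and the calls of Tagln (-0.58) and Vim (-0.80) were lost (adjusted p = 0.47 and 0.095 by edgeR). Against -3.05 and -3.25 with all members, those values moved by over 1.5 times without these barcodes. Early nephron genes were then lower in 7 of 11 (Lhx1 added) and brush border genes higher in 7 of 10 (Mme added).

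Over single members, UMIs per 10000 were ranked within each library. Lhx1 and Lrp2 ran against each other, with a Spearman coefficient of -0.540 over 95 members and -0.659 over 97. Lhx1 rose with Wnt4 (0.661 and 0.451), Jag1 (0.617 and 0.602) and Hes5 (0.645 and 0.403), and was lower where Hnf4a was higher (-0.242 and -0.398). It showed little relation to Cpb2 (0.0753 and -0.0212). Jag1 and Hes5 were both detected in 41 and 41 members, Jag1 alone in 48 and 50, and Hes5 alone in 0. Lhx1 and Hnf4a were both detected in 49 and 42 members, and neither in 5 and 3. These points share their library and their depth and are given as a description. Members with more Lhx1 thus had less Lrp2 in both libraries, while Cpb2 showed no such order.

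**Figure D5:**
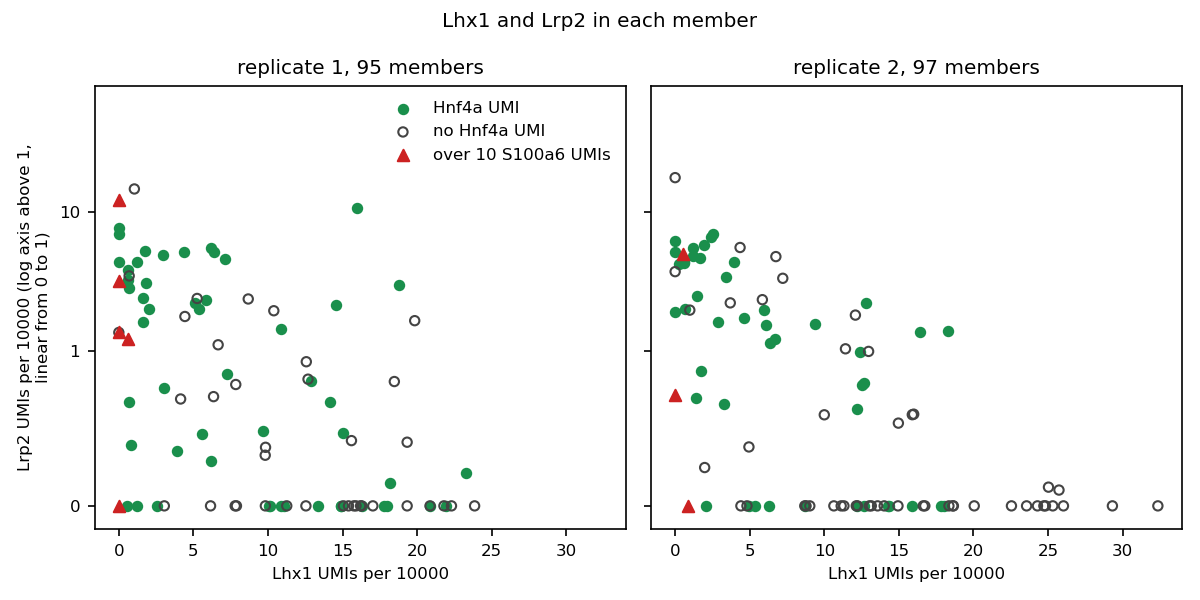
Lhx1 (horizontal axis) against Lrp2 (vertical axis, linear from 0 to 1 and logarithmic above), both in UMIs per 10000 of the barcode, for the 95 members of replicate 1 and the 97 of replicate 2. Green points have an Hnf4a UMI, open points have none, and red triangles are the 8 members with over 10 S100a6 UMIs. Most members with the highest Lhx1 have little or no Lrp2 in both panels (Spearman -0.540 and -0.659), and the triangles lie near 0 Lhx1.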

How the data were processed

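Single-cell RNA was counted in kidneys of 2 P0 mutant mouse libraries. The deposited files hold raw counts of UMIs per gene and barcode for all barcodes, 28693 features each. Per the submitters' processing notes the authors used Cell Ranger 6.0.1 and the build mm10, while the file headers name Cell Ranger 4. The annotation version and strand setting are not given in the sources used here. Totals were 163405630 and 135436576 UMIs. Replicates were numbered in accession order. Gene positions come from a RefSeq table of GRCm38.p6.

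Barcodes were filtered and gated as the report states. UMIs were summed per library and class and tested with edgeR 4.0.16 (limma 3.58.1, R 4.3.3): TMM, filterByExpr, library as a block, quasi-likelihood F test, Benjamini-Hochberg adjustment over all genes tested, threshold 0.05. The fits against all other barcodes and within members had 1 residual degree of freedom, and the 6-class fit 5. Cells were never replicates. DESeq2 1.42.0 was an alternative. Levels in CPM use all UMIs of the class. Globin-rich barcodes had over 20% globin UMIs. Doublets were marked with Scrublet in scanpy 1.11.5 (expected rate 6%, 0.8% per 1000 barcodes) and kept, except in 1 alternative. Named genes passed the threshold with 1 direction in both libraries and at least 20 CPM in the higher class, the 15 highest and 5 lowest against all other barcodes and 10 and 10 elsewhere. Fold changes printed for genes of the lists come besides. Some genes that met the rule or belong to the lists are counted but not reported by name here. The members and the lists were chosen with earlier results of these data known. On simulated data with 200 changed genes, the fit within members recovered 46% at a log2 change of 1 and 93% at 2, with 3 false calls among 9228 genes. The fit against Slc34a1 barcodes recovered 74% and 88%, with 13 false calls among 13547. The simulated counts were drawn independently, with 1 dispersion for all genes of a fit. These rates hold for such counts only and are no measure of false calls in the real data.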

Additional observations from a re-analysis of the deposited data

Results flagged for a closer look

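EYFP, a feature added to the reference, was not part of any comparison. Its level in members was 1.86 CPM in replicate 1 and 10.4 CPM in replicate 2, above the 1.12 and 1.20 CPM that 3 counts would give. It stood at 62.9 and 59.3 CPM in all other kept barcodes. In replicate 2 its 26 UMIs lay in 11 members, and 1 member held 9 of them. The labels do not say which cells EYFP reports.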

How the results depend on the processing

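The mean share of members, 1.71%, was 2.24% with at most 5% mitochondrial UMIs, 2.78% with 1 Cdh6 UMI sufficing, 0.536% with at least 4 and 0.473% with the rule applied after thinning to 5000 UMIs. Leaving out each library in turn gave 1.53 to 1.88%. Counts of calls could not be refitted without a library, since no residual degrees of freedom remained.

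Against all other barcodes (6259 calls), DESeq2 gave 3185, at least 4 Cdh6 UMIs 3651 and thinned sums 3047. Against the Slc34a1 barcodes (6566), the 5% limit gave 2053 and thinning 2879. Against the Irx1 barcodes (1841), the 5% limit gave 539, at least 4 Cdh6 UMIs 1028 and thinning 575. Against the Lhx1 and Wnt4 barcodes (3335), the 5% limit gave 542, at least 4 Cdh6 UMIs 2085, no barcodes over 50000 UMIs 1493, the narrower class 1118 and thinning 756. By Hnf4a (445), DESeq2 gave 49, no filter on low counts 3 (1337 at an unadjusted p under 0.05), at least 4 Cdh6 UMIs 175, at least 2 Osr2 UMIs 682 and thinning 215. Without the replicate block, the counts were 5642, 6369, 1473, 3080 and 261 in the same order. The block was the library. The causes were not tested.

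Of 2973 values for 176 gene and comparison pairs, 2821 were labelled unchanged, 128 lost the threshold, 12 gained it and 12 changed sign. Values with a library left out or without an adjusted p had no threshold to keep and were judged on direction alone. Of the losses, 39 came without the filter on low counts. Lrp2 against all other barcodes became 1.27 (5% limit), 0.51 (no barcodes over 50000 UMIs) and 0.93 (thinning). The other 9 sign changes lay in the Hnf4a comparison, where Jag1 and Hes5 had not passed. Jag1 became 0.034 with the 5% limit and 0.032 with 1 Cdh6 UMI sufficing, and leaving out a library gave -0.48 to 0.14. Hes5 became -0.0081 with library size only, -0.032 with at least 2 Osr2 UMIs, -0.36 with no barcodes over 50000 UMIs and -0.33 with thinning, and leaving out a library gave -0.55 to 0.54. Fgf8, which had passed, ranged from -2.94 to 0.079 when a library was left out.

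Depth limits the rule itself, since 2 Cdh6 UMIs are rarely counted in shallow barcodes, and limits statements on genes under the 1.12 and 1.20 CPM that 3 counts give in members.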
